A study of Mus musculus with 4 samples.

Results

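The genes described here encode the organic anion transporting polypeptides (Slco), the organic cation and anion carriers of the Slc22a family and the ATP-binding cassette transporters (Abca to Abcg). They were taken by their symbols from the gene counts of 4 mouse liver libraries, as every gene whose symbol starts with Slco and a digit, Slc22a and a number, or Abca to Abcg and a number. This gave 90 of 33924 genes: 15 Slco, 26 Slc22a, 16 Abca, 9 Abcb, 10 Abcc, 4 Abcd, 4 Abce and Abcf, and 6 Abcg genes. Of these, 88 are annotated as protein-coding.

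Hepatocytes take up drugs, bilirubin, bile acids and hormones from the blood through Slco and Slc22a carriers in their sinusoidal membrane. ABC transporters spend ATP to move such compounds and their conjugates onward, into bile across the canalicular membrane or back to blood across the basolateral membrane. Other ABC proteins move lipids between membranes, serve peroxisomes and mitochondria, or, in the Abce and Abcf families, act on ribosomes and transport nothing.

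RNA came from the livers of mice of the strain C57BL6 in the labels, given as male C57BL/6Rj mice in the methods of the study, and called young (3 months), adult (9 months), old (15 months) and very old (21 months) in the labels. No genetic change or treatment was applied. Each age was represented by 1 library from a pool of 24 mice, taken in sets of 4 around the day at 6 time points, so that time of day was averaged out and no replicate error exists for any value. Capped 5′-ends were enriched and sequenced, and reads were counted per gene symbol. The libraries held 955934, 958586, 525772 and 735962 counts on genes at 3, 9, 15 and 21 months, of which 0.467%, 0.510%, 0.519% and 0.519% fell on the transporter genes. Levels are given as counts or as counts per 1000000 counts on genes (cpm). Ratios between ages were made after dividing each library by its geometric mean over the 8704 genes that were counted in every library. Their 95% intervals, given in brackets, cover counting error alone, and so do all p-values of the chi-square test, which compares these 4 libraries and not the ages. In a bulk liver sample, fewer cells of a type and less RNA per cell cannot be told apart. The 9, 15 and 21 month ratios share the 3 month library.

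The hepatocyte markers Alb, Apoa1, Ttr, Tf, Cps1 and Cyp2e1 summed to between 90380 and 101000 cpm in the 4 libraries. Markers of other liver cells were far lower. The 7 Kupffer cell markers summed to between 593.1 and 835.6 cpm, the 7 sinusoidal endothelial markers to between 566.8 and 710.3 cpm and the 7 stellate cell markers to between 357.8 and 627.6 cpm. Cholangiocyte markers reached at most 41.8 cpm, with Epcam at 0, and T and B cell markers at most 24.7 cpm, with Ms4a1 at 0.

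The reads mark transcript starts, so the promoters of the members to which the results return are shown first. The sequences are the RefSeq promoters of the GRCm38.p6 build, limited to the 250 bases before the start of the RNA; 72 of the 90 members had such a promoter, some with more than 1 start, which made 84 windows. Capitals mark the matches of 4 short motifs searched on both strands: the TATA box TATAAA, an arm of the HNF1 site (GTTAAT), the core of the antioxidant response element (TGACNNNGC) and the E-box CACGTG. The first 3 sequences belong to the hepatic Slco1 genes, which lie beside each other on chromosome 6. Slco1b2 is at chr6:141629268-141629517 on the plus strand, Slco1a1 at chr6:141946963-141947212 and Slco1a4 at chr6:141856221-141856470 on the minus strand, each written 5′ to 3′ towards its start.
Slco1b2: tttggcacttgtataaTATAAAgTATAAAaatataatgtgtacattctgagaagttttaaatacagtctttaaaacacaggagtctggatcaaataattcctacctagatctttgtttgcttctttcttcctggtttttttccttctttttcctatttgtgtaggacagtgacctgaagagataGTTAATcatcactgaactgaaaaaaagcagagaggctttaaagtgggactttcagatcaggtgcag
Slco1a1: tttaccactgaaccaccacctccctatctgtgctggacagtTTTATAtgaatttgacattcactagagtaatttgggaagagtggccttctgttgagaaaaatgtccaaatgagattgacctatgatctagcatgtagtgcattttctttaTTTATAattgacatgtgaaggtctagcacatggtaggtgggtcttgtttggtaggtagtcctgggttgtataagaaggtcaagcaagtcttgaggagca
Slco1a4: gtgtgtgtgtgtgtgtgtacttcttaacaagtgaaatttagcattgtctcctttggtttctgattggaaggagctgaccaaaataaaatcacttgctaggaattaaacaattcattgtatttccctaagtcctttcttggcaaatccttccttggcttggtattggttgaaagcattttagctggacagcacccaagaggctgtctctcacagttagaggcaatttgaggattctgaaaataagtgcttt
The next is the promoter of Abcc2, the canalicular conjugate pump, at chr19:43782058-43782307 on the plus strand.
Abcc2: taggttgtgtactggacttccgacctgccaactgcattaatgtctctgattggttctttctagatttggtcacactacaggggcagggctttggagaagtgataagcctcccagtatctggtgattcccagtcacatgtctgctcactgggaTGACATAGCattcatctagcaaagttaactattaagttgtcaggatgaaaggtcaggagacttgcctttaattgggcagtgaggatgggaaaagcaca
The last is the 109 bases between the divergent starts of Abcg5 (minus strand) and Abcg8 (plus strand), at chr17:84683012-84683120, written on the plus strand. Both genes share this stretch as the promoter nearest to these RefSeq starts.
Abcg5-Abcg8: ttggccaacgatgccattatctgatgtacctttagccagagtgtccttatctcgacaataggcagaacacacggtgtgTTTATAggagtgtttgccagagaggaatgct

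TATAAA was found at 2 places on the sense strand of Slco1b2, from 234 to 229 and from 227 to 222 bases before the start, and on the opposite strand of Slco1a1, from 209 to 204 and from 99 to 94 bases before it. In the Abcg5-Abcg8 stretch it was on the opposite strand from 31 to 26 bases before the Abcg8 start. GTTAAT was found in Slco1b2 from 66 to 61 bases before the start, and TGACATAGC in Abcc2 from 98 to 90 bases before it. Slco1a4 held none of the motifs in this window. Of the 84 windows of the members, 13.1% held TATAAA, 4.76% GTTAAT, 10.7% TGACNNNGC and 8.33% CACGTG. The shares among all 32536 promoters of the same length were 12.3%, 6.47%, 10.2% and 6.04%. The HNF4 motif CAAAGTCCA was in none of the members' windows and in 0.387% of all promoters. These matches are a description of the letters in the window and not of bound sites.

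At least 1 count was found for 58 of the 90 genes, beside 15067 of all 33924 genes. Counts in all 4 libraries were found for 43 of the 90, beside 8704 of all genes. Detection differed between the families. All Abcd, Abce, Abcf and Abcg genes were detected, as were 11 of 16 Abca, 7 of 9 Abcb and 8 of 10 Abcc genes, but 7 of 15 Slco and 11 of 26 Slc22a genes. Among the 32 genes with no count were the renal anion carriers Slc22a6 and Slc22a8, Abcb1b, Abcc8, the sulfonylurea receptor of the beta cell, and Slco4a1 and Slco4c1. A count of 0 allows a level of up to 3 counts, which is 3.14, 3.13, 5.71 and 4.08 cpm at 3, 9, 15 and 21 months. Reads that mapped to more than 1 place were not counted, and 8 of the 32 undetected genes had stretches of 35 bases with a second match in the genome within the first 100 bases of a transcript. These include Slc22a13, Slc22a26, Slc22a27 and Slc22a29. For Slc22a28 and Slc22a30, 2 genes of a cluster on chromosome 19, all such stretches had a second match, so that their counts are uncertain.

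Counts were concentrated in a few genes. Slco genes held 42.3% of the 15901 counts on members, Abca genes 19.1%, Abcc genes 14.9% and Slc22a genes 10.8%. The Abcd, Abcg, Abcb, and Abce and Abcf genes held 4.65%, 3.97%, 3.13% and 1.14%. Slco1b2 alone held 62.4% of the Slco counts and Abcd3 84.6% of the Abcd counts. Per kilobase of exon, the mean level over the 4 libraries was 269 cpm per kb for Slco1b2, the highest of all members. Among the others named here it was highest for Slc22a18 (101 cpm per kb), Abca6 (89.4 cpm per kb), Slco1a1 (73.5 cpm per kb) and Abcc2 (57.7 cpm per kb). Reads from 5′-ends need not scale with transcript length, and this order depends on the division. Undivided, the mean level was 482 cpm for Abca6, 388 cpm for Slco1a1, 331 cpm for Abcc2 and 173 cpm for Slc22a18, with Slco1b2 still highest at 1327 cpm.

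No transporter gene passed the test for a linear trend with age. In edgeR's quasi-likelihood test, 0 of the 29 members with enough counts had an adjusted p of at most 0.05, beside 0.167% of all 3599 genes tested. At an unadjusted p under 0.05 there were 2 members, Abcc9 and Slco2b1, beside 5.86% of all genes. DESeq2 called 0 members and 0 of all 15067 genes tested, with 1 member (Abcc10) and 123 genes (0.816%) at an unadjusted p under 0.05. Of the 29 slopes, 18 were positive and 11 negative, with a median of 0.0080 log2 units per month beside -4.1e-05 over all genes. The fit had 2 residual degrees of freedom.

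Between the libraries, however, the counts of 20 of the 40 members with at least 20 counts differed by more than counting noise (Pearson's chi-square test, adjusted p under 0.05), which is 50% beside 33.0% of all 7362 genes tested. Members had more counts than most genes, with a median total of 153 against 61, and more counts let the test see smaller differences. Among genes with at least 100 counts, 15 of 25 members were called, beside 46.7% of all genes. By family, the 20 called among all 40 members tested were 3 of 5 Slco, 3 of 5 Slc22a, 5 of 8 Abca, 3 of 5 Abcb, 4 of 6 Abcc, 0 of 3 Abcd, 1 of 4 Abce and Abcf, and 1 of 4 Abcg genes. There was no shared age profile. Of the 20 called genes, 4 were highest at 3 months, 6 at 9 months and 5 each in the 15 and 21 month pools.

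**Figure D1:**
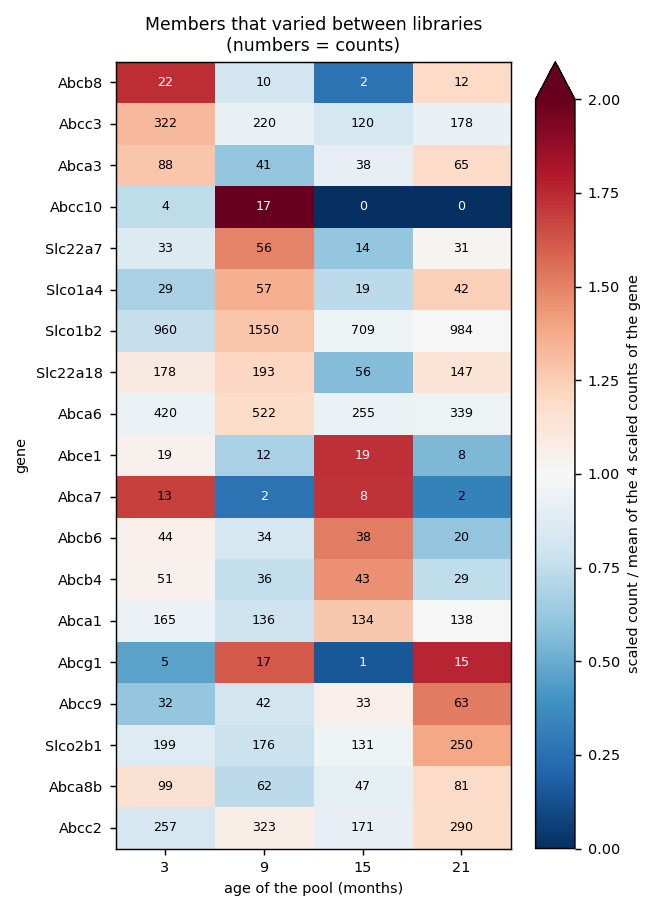
Counts of 19 of the 20 members called by the chi-square test, printed in each cell, by age of the pool in months (x axis) and gene (y axis). The colour gives the scaled count divided by the mean of the gene's 4 scaled counts, with values above 2 drawn in the darkest red. Genes are ordered by the age at which they were highest, and each of the 4 ages has between 3 and 6 of them.

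Changes past 2-fold against the 3 month library were few. At 9 months 5 members (Slco1a4, Abcc10, Abcc4, Abcf2 and Abcg1) were at least 2-fold higher and 3 (Abca3, Abca7 and Abcb8) lower, beside 12.0% and 11.9% of all genes. Slco1a4 and Abcc4 fell short of 2-fold when scaled by library totals or by the 7 marker genes of the study, which left 3 higher and 3 lower members, beside 772 higher and 988 lower genes of 7362 with library totals and 696 and 1112 with the marker genes. At 15 months 2 (Slc22a30 and Abcf2) were higher and 2 (Abcb8 and Abcg1) lower, beside 12.6% and 16.4%. At 21 months 3 (Abcc9, Abcf2 and Abcg1) were higher and 1 (Abca7) lower, beside 12.8% and 13.7%. With 40 members examined, the 5 genes higher at 9 months are near the background of all genes and the other numbers lie below it. The intervals of Abcc4, Abcf2 and Slc22a30 included 1 in these comparisons, and so did that of Abcb8 at 9 months and that of Abcg1 at 15 months.

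**Figure D2:**
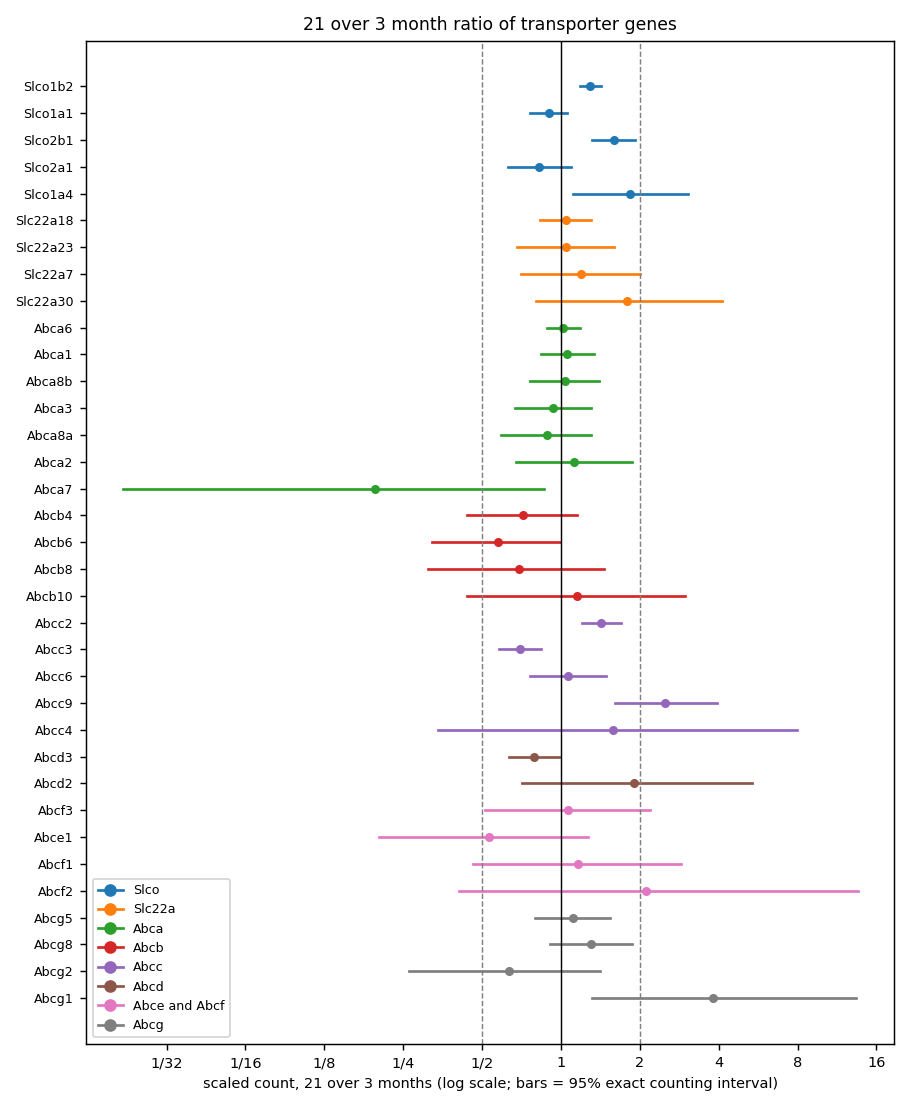
Ratio of the scaled count at 21 months to that at 3 months (x axis, log scale) for members with at least 20 counts and counts at both ages, by family (y axis and colour). Points are ratios, bars 95% counting intervals, dashed lines 2-fold changes. Most bars cross 1; Slco1b2, Slco2b1, Slco1a4, Abcc2, Abcc9 and Abcg1 lie above it, and Abca7, Abcb6, Abcc3 and Abcd3 below it.

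Uptake carriers of the Slco family, also called OATPs, came first in abundance, and their sum was higher in the 3 older pools than at 3 months. In order of age it was 1768, 2349, 2208 and 2212 cpm. The 21 over 3 month ratio of the sum was 1.22 [1.14 to 1.31], and without Slco1b2 it was 1.12. At 9 months the higher sum rested mainly on Slco1b2, with 1004 cpm at 3 months and 1617 cpm at 9 months. Slco1a1 (378 and 368 cpm), Slco2b1 (208 and 184 cpm) and Slco2a1 (142 and 119 cpm) were not higher at 9 months. Slco1a4 was higher, at a lower level (30.3 and 59.5 cpm). Slco1b2, the mouse counterpart of the human OATP1B carriers for bilirubin conjugates and statins, lies on chromosome 6 (chr6:141578039-141635167, plus strand, in the NCBIM37 build, which also gives the gene positions that follow). It had 960, 1550, 709 and 984 counts at 3, 9, 15 and 21 months, or 1004, 1617, 1348 and 1337 cpm. The 9 month pool stood highest and the 3 month pool lowest. The ratio to 3 months was 1.65 [1.52 to 1.79] at 9 months, 1.23 [1.11 to 1.35] at 15 and 1.30 [1.19 to 1.42] at 21 months, with an adjusted chi-square p of 5.3e-32. It was the only member called by this test whichever of the 4 libraries was left out. The level at 21 months was below that at 9 months, with a ratio of 0.785 [0.724 to 0.851], and the slope over all ages was 0.01 ± 0.02 log2 units per month (SE).

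Slco1a1, a broad carrier of organic anions and steroid conjugates, had 361, 353, 240 and 256 counts (378, 368, 457 and 348 cpm). Scaled by the geometric means, its 4 levels did not differ beyond counting noise (adjusted chi-square p = 0.238). Slco1a1 was called when scaled by library totals or by the 7 marker genes of the study. Its 21 over 3 month ratio was 0.897 [0.761 to 1.06]. Within each library Slco1b2 had between 2.66 and 4.39 counts for each count of Slco1a1, a ratio that needs no scaling between libraries. In order of age it was 2.66 [2.35 to 3.01], 4.39 [3.91 to 4.94], 2.95 [2.55 to 3.43] and 3.84 [3.35 to 4.43]. The neighbouring carriers thus differed in their profile over these pools. Slco1a4, the third hepatic Slco1 carrier, had 29, 57, 19 and 42 counts (30.3, 59.5, 36.1 and 57.1 cpm). The 9 and 21 month pools stood above the 3 and 15 month pools, with ratios to 3 months of 2.01 [1.26 to 3.26] and 1.83 [1.11 to 3.05] (adjusted chi-square p = 0.0175). Its call was lost without the 3 month (adjusted p = 0.152) or the 9 month library (adjusted p = 0.0733), and with the 7 marker genes of the study for scaling. Of its 35-base stretches near the start, 5.62% had a second match in the genome.

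Slco2b1, a carrier of sulfated steroids and several drugs (chr7:106806314-106859850, minus strand), had 199, 176, 131 and 250 counts (208, 184, 249 and 340 cpm). The 21 month pool was the highest, 1.59-fold [1.31 to 1.92] above 3 months and 1.76-fold [1.44 to 2.14] above 9 months (adjusted chi-square p = 1.5e-07, and 0.439 without the 21 month library). Its slope was 0.04 ± 0.02 log2 units per month (SE), with an unadjusted p of 0.033 and an adjusted p of 0.733 in edgeR. The antisense gene Gm15635 overlaps its exons, and whether counting used the strand is not given in the sources used here. Slco2a1, the prostaglandin transporter, had 136, 114, 61 and 89 counts (142, 119, 116 and 121 cpm). No difference between its libraries was detectable at this depth (adjusted chi-square p = 0.335). The other detected genes, Slco3a1 and Slco1c1, had between 0 and 7 counts per library.

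**Figure D3:**
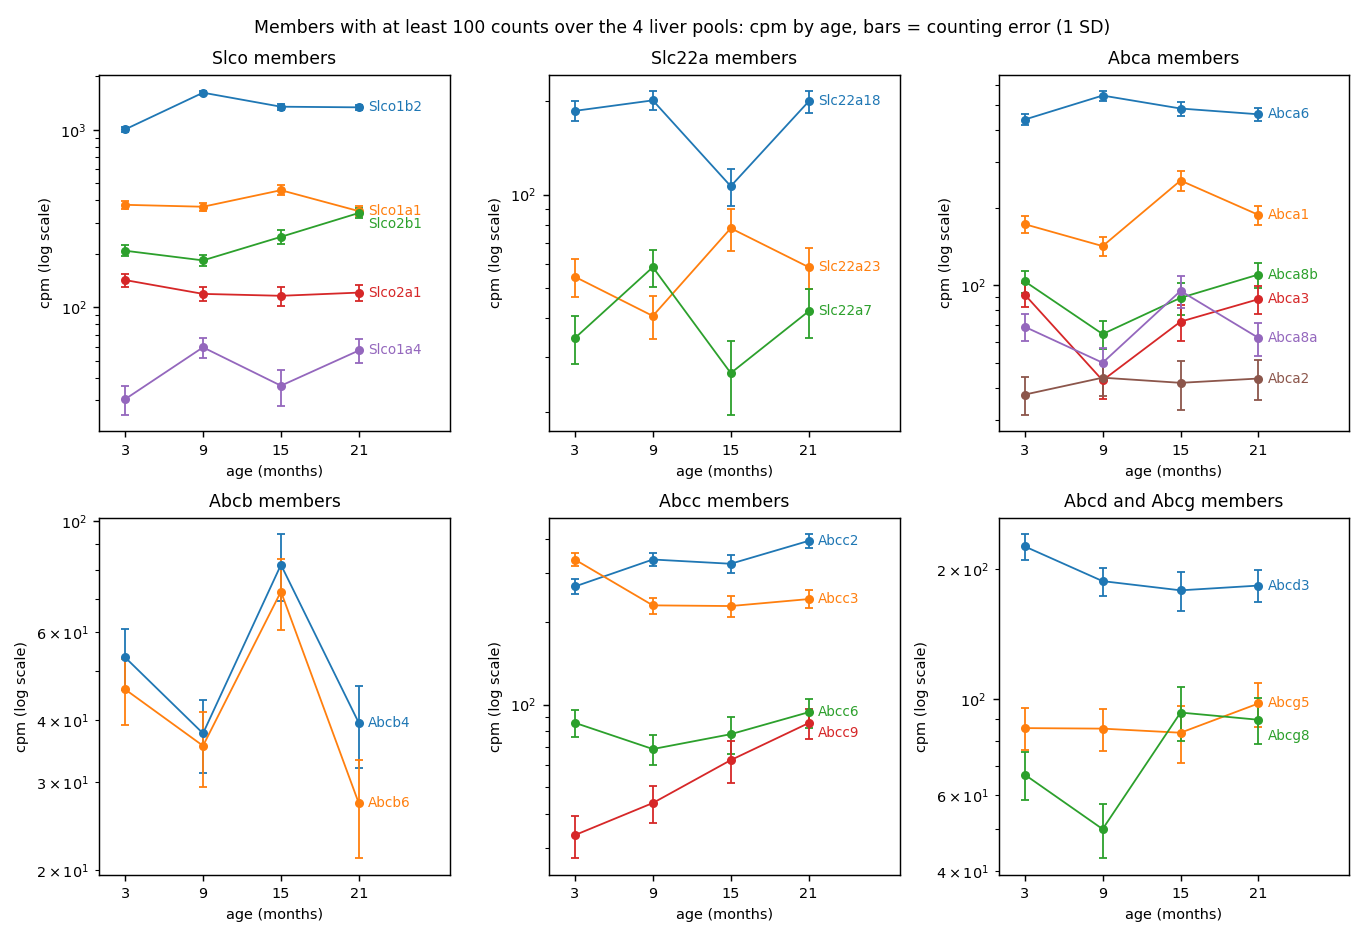
Level in cpm (y axis, log scale, a different range in each panel) by age in months (x axis) of members with at least 100 counts over the 4 libraries, by family. Points are single pools and bars the counting error (1 SD). Slco1b2 is highest at 9 months, Abcc2 and Abcc3 change places between 3 and 9 months, and Abcc9 increases at each age shown.

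The Slc22a family of cation and anion carriers summed to 568, 544, 458 and 556 cpm. Slc22a18, an imprinted carrier whose substrates are poorly defined, had 178, 193, 56 and 147 counts (186, 201, 107 and 200 cpm). The 15 month pool stood apart from the others, at 0.523 [0.380 to 0.710] of the 3 month level, and the 21 month pool was at 1.04 [0.834 to 1.31] of it (adjusted chi-square p = 9.5e-05). Slc22a7 (OAT2), an anion carrier, showed a related profile with fewer counts, 33, 56, 14 and 31 (34.5, 58.4, 26.6 and 42.1 cpm). It was highest at 9 months, 1.74-fold [1.11 to 2.76] above 3 months, and lowest at 15 months (adjusted chi-square p = 0.0214). Without the 15 month library neither gene was called (adjusted p = 0.664 for Slc22a18 and 0.079 for Slc22a7), and Slc22a7 was not called without the 9 month library either (adjusted p = 0.398) or with the 7 marker genes for scaling. Slc22a23, an orphan carrier, had 52, 39, 41 and 43 counts and was not called (adjusted chi-square p = 0.208), except with the 7 marker genes for scaling. The organic cation carrier Slc22a3 had between 0 and 3 counts per library and the carnitine transporter Slc22a5 between 2 and 5.

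Conjugate pumps of the Abcc family (MRPs) summed to 739, 712, 713 and 823 cpm, with a 21 over 3 month ratio of 1.09 [0.972 to 1.21]. Behind this sum, the canalicular pump Abcc2 and the basolateral pump Abcc3 went opposite ways. Abcc2 (MRP2), which exports bilirubin glucuronides and glutathione conjugates into bile (chr19:43856682-43912441, plus strand), had 257, 323, 171 and 290 counts (269, 337, 325 and 394 cpm). It was lowest at 3 months and highest at 21 months, with a ratio of 1.43 [1.20 to 1.69] (adjusted chi-square p = 0.0015). Abcc3 (MRP3), which returns such conjugates to blood (chr11:94204612-94254311, minus strand), had 322, 220, 120 and 178 counts (337, 230, 228 and 242 cpm). It was highest at 3 months and stood at 0.699 [0.586 to 0.832], 0.620 [0.498 to 0.766] and 0.699 [0.579 to 0.842] of that level at 9, 15 and 21 months (adjusted chi-square p = 1.3e-05). Within the libraries, the counts of Abcc2 per count of Abcc3 were 0.798 [0.675 to 0.943] in the youngest pool, and then 1.47 [1.23 to 1.75], 1.43 [1.12 to 1.82] and 1.63 [1.35 to 1.98]. Without the 3 month library neither gene was called (adjusted chi-square p = 0.0934 for Abcc2 and 0.616 for Abcc3).

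Abcc9, the sulfonylurea receptor subunit of ATP-sensitive potassium channels of smooth muscle and pericytes (chr6:142536382-142650794, minus strand), had 32, 42, 33 and 63 counts (33.5, 43.8, 62.8 and 85.6 cpm). It was the single member above 2-fold at 21 months with at least 20 counts in any library, at 2.49 [1.60 to 3.94] times the 3 month level (adjusted chi-square p = 0.00081, and 0.207 without the 21 month library). Its cpm was higher at each age than at the one before. The intervals of the 9 over 3 month ratio, 1.34 [0.827 to 2.20], and of the 21 over 15 month ratio, 1.45 [0.938 to 2.28], included 1. Its slope, 0.07 ± 0.03 log2 units per month (SE), had an unadjusted p of 0.0139 and an adjusted p of 0.610 in edgeR. The 7 stellate cell markers summed to 357.8, 586.3, 627.6 and 555.7 cpm at the 4 ages, all of them detected, and their part in the result was not tested. Abcc6, which supports ATP release from hepatocytes and is mutated in pseudoxanthoma elasticum, had 82, 66, 41 and 69 counts without a detectable difference (adjusted chi-square p = 0.472).

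Abcc10 (MRP7) had 4, 17, 0 and 0 counts. With the libraries at 0 set to 3 counts each, its level at 9 months was 4.58-fold higher than at 21 months and 3.49-fold higher than at 15 months. These values leave out the counting error of the 17 counts. Its adjusted chi-square p was 3.6e-05. Without the 3 or the 9 month library it had too few counts to be tested. The antisense gene Dlk2 overlaps its exons and 7.35% of its start stretches had a second match. Abcc4 (MRP4), a basolateral pump, had 4, 8, 3 and 5 counts, too few to show a difference.

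Abcb genes summed to 157, 140, 223 and 132 cpm. Abcb4, the floppase that delivers phosphatidylcholine to bile, had 51, 36, 43 and 29 counts (53.4, 37.6, 81.8 and 39.4 cpm). Its scaled level at 21 months was 0.513 [0.309 to 0.841] of that at 15 months (adjusted chi-square p = 0.0288). Abcb6, a porphyrin-related transporter, had 44, 34, 38 and 20 counts (46.0, 35.5, 72.3 and 27.2 cpm) and was likewise highest at 15 months, with a 21 over 15 month ratio of 0.400 [0.221 to 0.705] (adjusted chi-square p = 0.0179). Both were called with each of the 4 scalings. Without the 15 month library the adjusted p was 0.353 for Abcb4 and 0.223 for Abcb6, and without the 21 month library it was 0.0521 and 0.112. Abcb4 was also lost without the 9 month library (adjusted p = 0.0653). Abcb8, of the inner mitochondrial membrane, had 22, 10, 2 and 12 counts (adjusted chi-square p = 0.0421, and 0.212 and 0.234 without the 3 or the 15 month library). Its call was also lost with TMM factors, with library totals and when a count in every library was required of all genes tested. The drug efflux pump P-glycoprotein was scarcely seen. Abcb1a had 0, 2, 0 and 4 counts and Abcb1b none in any library.

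Lipid transporters of the Abca family summed to 943, 906, 1071 and 959 cpm, with a 21 over 3 month ratio of 0.991 [0.897 to 1.10]. Abca6, Abca8a, Abca8b, Abca9 and Abca5 lie beside each other on chromosome 11 (NCBIM37, chr11:109793504-110199030), all on the minus strand, with very unequal levels. Abca6 reached a mean of 89.4 cpm per kilobase of exon, Abca8b 12.4, Abca8a 11.0, Abca9 0.971 and Abca5 0.397. Not divided by exon length, the means were 482, 91.9, 69.2, 7.81 and 4.54 cpm, in the same order. Abca6 had 420, 522, 255 and 339 counts (439, 545, 485 and 461 cpm) and was highest at 9 months, 1.27-fold [1.12 to 1.45] above 3 months (adjusted chi-square p = 0.0027, and 0.977 without the 9 month library), a call that was lost with the 7 marker genes for scaling. Abca8b had 99, 62, 47 and 81 counts and was lowest at 9 months, at 0.640 [0.459 to 0.889] of the 3 month level (adjusted chi-square p = 0.0430, with between 0.0369 and 0.423 when 1 library was left out and a call only without the 15 month library). It was not called with TMM factors or when a count in every library was required, and the antisense gene Gm11697 overlaps its exons. Abca8a had 66, 48, 50 and 46 counts and was not called (adjusted chi-square p = 0.131), except when scaled by library totals or the 7 marker genes. Abca9 had 7, 12, 6 and 0 counts. With the 21 month library set to 3 counts, its 9 month level was 3.24-fold higher, a value that leaves out the counting error of the 12 counts. The 4 counts of Abca9 did not pass the test (adjusted chi-square p = 0.0646).

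Outside this cluster, Abca1, which loads cholesterol onto apolipoprotein A-I, had 165, 136, 134 and 138 counts (173, 142, 255 and 188 cpm). The 15 month pool was highest, 1.35-fold [1.07 to 1.71] above 3 months and 1.60-fold [1.25 to 2.05] above 9 months (adjusted chi-square p = 0.0079). Its adjusted p was 0.0915 without the 9 month library and 0.310 without the 15 month library. Abca3, known for surfactant lipids of the lung, had 88, 41, 38 and 65 counts (92.1, 42.8, 72.3 and 88.3 cpm), with the 9 month pool at 0.476 [0.321 to 0.698] of 3 months (adjusted chi-square p = 0.0033, and 0.348 without the 9 month library). Abca2, a lysosomal lipid transporter, had 36, 42, 22 and 32 counts and was not called (adjusted chi-square p = 0.888). Abca7 had 13, 2, 8 and 2 counts, and its 21 over 3 month ratio of 0.195 [0.021 to 0.859] rests on 2 counts at 21 months (adjusted chi-square p = 0.0175). It lost its call whichever library was left out, with an adjusted p of 0.122 without the 9 month and 0.0574 without the 21 month library and too few counts otherwise.

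The Abcg5 and Abcg8 proteins form a heterodimer that secretes sterols into bile, and the shared stretch printed above lies between a RefSeq start of each gene. Abcg5 had 82, 82, 44 and 72 counts (85.8, 85.5, 83.7 and 97.8 cpm) and Abcg8 had 64, 48, 49 and 66 (67.0, 50.1, 93.2 and 89.7 cpm). Neither was called (adjusted chi-square p = 0.775 and 0.0580), and Abcg8 was called with 2 of the other scalings, library totals and the 7 marker genes of the study. The counts of Abcg5 per count of Abcg8 were 1.28 [0.913 to 1.81], 1.71 [1.18 to 2.49], 0.898 [0.584 to 1.38] and 1.09 [0.770 to 1.55] in order of age. In the annotation used for gene positions, Abcg8 begins inside Abcg5 and their exons overlap on opposite strands. Whether counting used the strand is not given in the sources used here. Abcg2 (BCRP), a drug and urate pump, had 20, 23, 19 and 10 counts (adjusted chi-square p = 0.198), with a second match for 35.8% of its start stretches. Abcg1, a cholesterol exporter prominent in macrophages, had 5, 17, 1 and 15 counts. The 9 and 21 month pools were above the others, with a 21 over 3 month ratio of 3.79 [1.31 to 13.3] (adjusted chi-square p = 0.0073, and 0.0523 and 0.0581 without the 3 or the 15 month library). The 7 Kupffer cell markers summed to 593.1, 750.1, 772.2 and 835.6 cpm in the same libraries, and their part was not tested.

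Among organelle and ribosome proteins, Abcd3 (PMP70), an abundant protein of the peroxisomal membrane, had 216, 180, 94 and 135 counts (226, 188, 179 and 183 cpm). Its 21 over 3 month ratio was 0.790 [0.633 to 0.984], but its 4 counts did not differ beyond counting noise after adjustment (adjusted chi-square p = 0.0839). The antisense gene Gm17676 overlaps its exons. Abcd2 and Abcd4 had between 0 and 13 counts per library. Abce1, which splits ribosomes after termination, had 19, 12, 19 and 8 counts and was highest at 15 months and lowest at 21 months (adjusted chi-square p = 0.0376). It was called without the 3 month library alone, and otherwise had an adjusted p between 0.0609 and 0.382 when 1 library was left out. Abcf1, Abcf2 and Abcf3 had between 3 and 19 counts per library, and none of them was called.

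**Figure D4:**
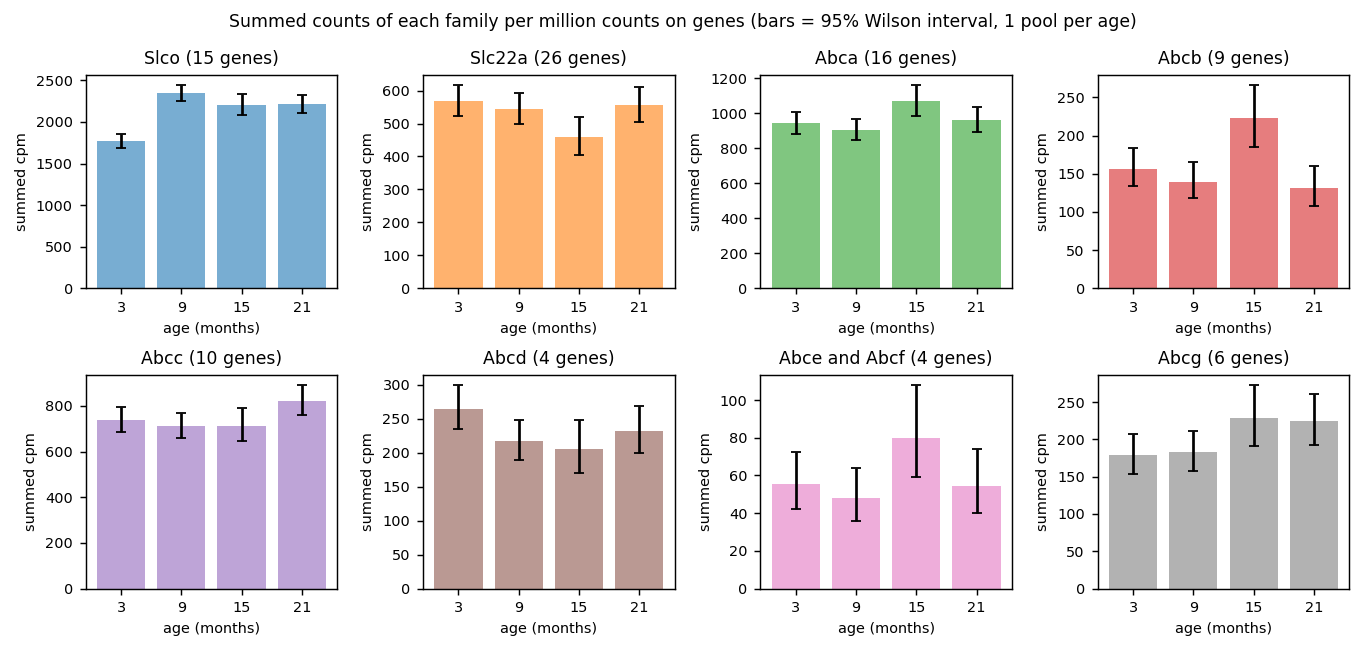
Summed cpm of all members of each family (y axis, from 0, a different range in each panel) by age in months (x axis). Each bar is 1 pool and the lines are 95% Wilson intervals of the family's share of the counts on genes. The Slco sum is 1768 cpm at 3 months and between 2208 and 2349 cpm at the other ages, with intervals that do not overlap that at 3 months.

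The study judged the stability of genes by the mean and variance of the centered log-ratio (clr), the logarithm of a count over the geometric mean of its library. For the 43 members with a clr, the median variance over the 4 ages was 0.0787, beside 0.160 for all 8704 genes, and the median mean was 0.883 beside -0.210. Of the 43, 32 lay below the all-gene median variance and 30 above the all-gene median mean. Genes with more counts have less counting noise in their variance, and the share of the members' lower variance that this accounts for was not tested. Slco1a1 was among the least variable members, with a variance of 0.0073 and a mean of 3.09, next to Abca2 (variance 0.0071, mean 0.866) and Abcg5 (variance 0.0081, mean 1.62). The counting noise, as the mean of the reciprocal counts, was 0.0034 for Slco1a1, 0.0321 for Abca2 and 0.0153 for Abcg5. The variances of Abca2 and Abcg5 thus lay below their counting noise and do not rank their stability. Slco1b2 had the highest mean, 4.31, with a variance of 0.0425 and a counting noise of 0.0010. The highest variances belonged to Abcg1 (1.33) and Abca7 (1.03), both of which had a library with 1 or 2 counts.

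**Figure D5:**
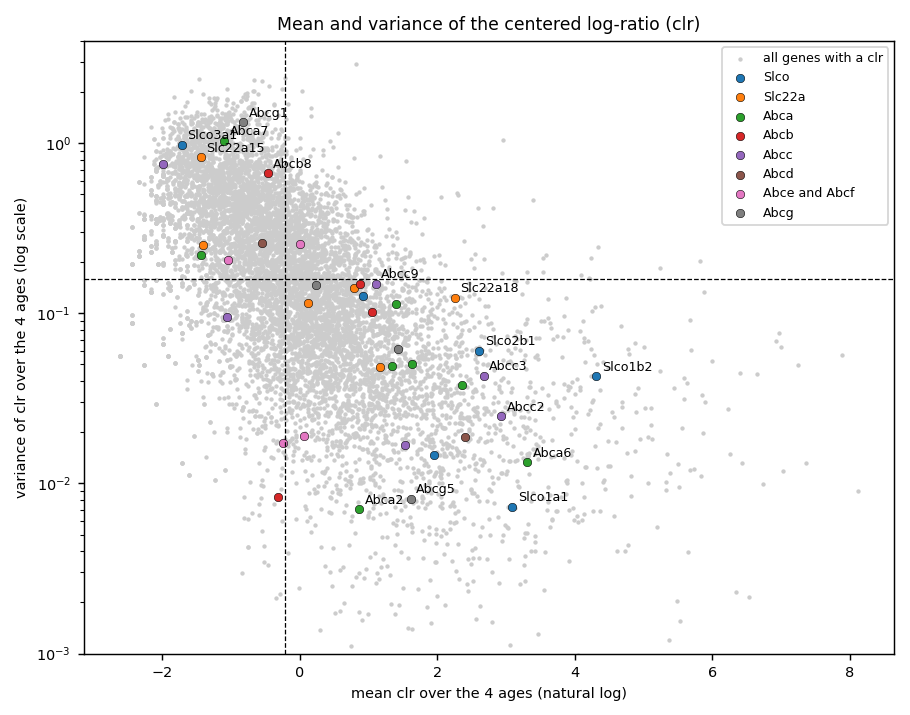
Mean (x axis, natural log) and variance (y axis, log scale) of the clr over the 4 ages for the genes with counts in all libraries (grey) and 40 of the 43 members (coloured by family). Dashed lines mark the medians of all genes, -0.210 and 0.160. Slco1b2 has the highest mean of the members, and Abcg1 and Abca7 have the highest variances.

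Genes outside these families that belong to the same processes were read from the same tests. Of 36 other transporters and their partners, which include the bile acid carrier Slc10a1, the phosphate and urate carriers of the Slc17a family and the drug exporter Slc47a1, 31 were detected. The chi-square test called 7 of the 20 that could be tested (35%, beside 33.0% of all genes), and the trend test 0 of 16 (beside 0.167%). The median total count of the tested genes of this list was 125.5. At 21 months 1 of the 20 was at least 2-fold higher than at 3 months (Slc10a7, 6 and 17 counts) and 3 were lower (Slc17a3, Pdzk1 and Slc15a4), beside 12.8% and 13.7% of all genes. Slc10a1, which takes up conjugated bile acids beside the Slco carriers, had 286, 295, 157 and 294 counts with a 21 over 3 month ratio of 1.30 [1.10 to 1.54] (adjusted chi-square p = 0.0056). Of 25 regulators known to control such transporters, all were detected. Apart from Keap1 they are transcription factors, which include Nr1i2 (PXR), Nr1i3 (CAR), Hnf4a and Nfe2l2. The chi-square test called 10 of the 24 tested (41.7%, beside 33.0% of all genes) and the trend test 0 of 18 (beside 0.167%). The median total count of the tested regulators was 93.5, beside 61 for all genes. At 21 months 1 of the 24, Stat5b, was at least 2-fold higher than at 3 months (18 and 35 counts). Another 2, Nr0b2 (25 and 4 counts) and Foxa2 (17 and 4 counts), were lower. The shares of all genes were 12.8% higher and 13.7% lower. Nr1i2 and Nr1i3, both xenobiotic sensors, were not called (adjusted chi-square p = 0.582 and 0.138), and neither was Nfe2l2 (adjusted chi-square p = 0.0628). Ahr (26, 9, 3 and 22 counts) and Rxra were among the 10 that were called (adjusted chi-square p = 0.0034 and 0.0064).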

How the data were processed

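RNA of 4 pools of mouse liver was measured, 1 pool per age, without replicates. The deposited values are raw read counts by gene symbol and were not normalised by the authors. The authors removed uncapped RNA, ligated linkers to the former cap sites, sequenced 35-base reads on 1 lane of a SOLiD instrument and mapped them to mm9 with the CLC Genomic workbench. HTSeq is named in the submitters' processing notes, with no version, and the annotation and strand setting are not given in the sources used here. The labels name a TRIZOL extraction and the methods of the study a column kit. Alignments that were not unique, between 72.2% and 76.7% of the records, and other records without a gene were left out of library sizes and tests. Depth ranged from 525772 to 958586 counts on genes, and p-values and intervals cover counting error only (chi-square, ratios) or the spread around a line through 4 pools (trend).

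Libraries were scaled to their geometric mean over 8704 genes. The chi-square test of Pearson (at least 20 counts over the libraries, 3 degrees of freedom), edgeR's quasi-likelihood test of a linear age slope (TMM, filterByExpr, common dispersion 0.0456) and a 2-fold rule against 3 months were run on all genes, with Benjamini-Hochberg adjustment over all genes tested and a threshold of 0.05. In the 2-fold rule a count of 0 was set to 3. Ratios carry Clopper-Pearson intervals and family shares Wilson intervals, at 95%. Slopes are in log2 units and clr values in natural logarithms. Alternatives were other scale factors, filters, DESeq2, a 1.5-fold rule and leaving out each library or the leading member of a family. Gene positions, exon lengths and overlaps came from GENCODE M1 on NCBIM37, in whose genome the 35-base stretches were searched with at most 1 mismatch. Members named in the text are the 25 with the most counts, those called by a test or past 2-fold between 3 and 21 months, and 15 textbook liver drug transporters. Others appear by range, as detected or not, or, chosen after their values were seen, where a small count or a gene cluster includes them. The members, the lists of other transporters, regulators and cell type markers, and the motifs were chosen with earlier results of these data known. Calculations used edgeR 4.0.16 and DESeq2 1.42.0 in R 4.3.3, and scipy 1.17.1, numpy 2.4.6, pandas 2.3.3 and matplotlib 3.10.9 in Python 3.11.15. A gene that matched the rule was left out, and 3 of the 90 members enter the counts, sums and tests over all members but are not reported singly or drawn. The other assays of the study were not analysed here.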

Additional observations from a re-analysis of the deposited data

How the results depend on the processing

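The trend test called 0 members under each alternative: other scale factors, no filter, DESeq2 and leaving out each library. These settings called between 0 and 15 of all genes, of which between 3431 and 15067 were tested, so that 0 members lies near the background. The number of members called by the chi-square test was 20 of 40. With the 3 other scalings it was between 17 and 21 of 40, beside 32.3% to 35.7% of all genes. With 20 counts required in a library it was 17 of 28, beside 45.0% of all genes. With counts required in every library it was 17 of 43, beside 25.3% of all genes. Without 1 library it was between 10 and 13. These were 10 of 36 without the 15 month library and 11 of 36 without the 9 month library. They were 12 of 35 without the 3 month library and 13 of 38 without the 21 month library. Here 3 libraries and fewer counts entered the test, and the share of all genes called was between 22.5% and 26.4%. Of the 20 members, 14 were called with all 3 other scalings. Abca8b and Abcb8 were among those lost with TMM factors, and Abca6, Slc22a7 and Slco1a4 were lost with the 7 marker genes. The 4 members past 2-fold at 21 months became 1 of 28 (Abcc9, higher) with 20 counts required in a library. With that filter 7.18% of all genes were higher and 11.1% lower. With a 1.5-fold rule there were 13 members (8 higher and 5 lower, beside 22.2% and 25% of all genes). Of the scalings tried at 9 and 15 months, which were chosen after seeing the data, library totals and the 7 marker genes left 6 of the 8 members past 2-fold at 9 months and gave 5 instead of 4 at 15 months. Of all 7362 genes, 1107 were higher and 1007 lower at 15 months with library totals, and 1126 and 1006 with the marker genes. Without their leading member, the 21 over 3 month ratios of the family sums moved from 1.22 to 1.12 (Slco), from 0.952 to 1.10 (Slc22a), from 1.09 to 0.890 (Abcc) and from 0.850 to 1.20 (Abcd). The other scalings moved the ratios of 32 named members at 21 months within their intervals. Library totals shifted all log2 ratios at 15 months by 0.13, and the 7 marker genes shifted those at 9 months by -0.16 and those at 15 months by 0.13. Among the named members, the ratios of Slco1a1, Slc22a18 and Abcg5 at 9 months then changed sides of 1. Leaving out the members with a second match in the genome, chosen after seeing the data, left 35 members tested. Of these, 18 were called by the chi-square test, beside 33.0% of all genes. The same 4 were past 2-fold at 21 months (3 higher and 1 lower, beside 12.8% and 13.7% of all genes). No paired analysis was possible because there was 1 library per age. Depth limits what can be said of the 18 members with 1 to 19 counts and the 32 with none; thinning every library to the smallest total left 56.2 of the 58 detected members.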
